A study of Mus musculus with 6 samples.

Results

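The interferon regulatory factors (IRFs) are transcription factors that share a DNA-binding domain and read interferon-stimulated elements in promoters. Expression of 8 of them, Irf1, Irf2, Irf3, Irf4, Irf5, Irf7, Irf8 and Irf9, was followed in RENCA cells with and without extra Aqp1. The genes were taken as named members of the family, with earlier results of these data known, and make up 8 of the 78298 genes in the count table. A filter on low counts kept 7 of the 8, among 15522 genes kept in all; Irf4 was the member left out.

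RENCA is an established mouse renal adenocarcinoma line. In the oe-AQP1 group (3 samples) the cells carried a lentivirus with mouse Aqp1 under the ubiquitin C promoter, and in the oe-NC group (3 samples) the same vector without the insert. Cells of both groups were put under 2 µg/mL puromycin 48 hours after transduction and kept in it for 14 days. All of the samples come from a single cell line and carry the same batch label, and untransduced cells were not part of the comparison. The series calls the samples biological replicates but does not say whether they were transduced or grown apart, so the p-values measure the spread between these samples, which may be technical.

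RNA sequencing gave an expected count for each gene, which is an estimated number of reads and need not be whole. Replicates 1 to 3 of oe-AQP1 held 19758517.73, 21920898.67 and 20468700.71 such counts in total, and those of oe-NC held 19788719.78, 18385714.02 and 21396273.57. Levels are given as CPM, the counts of a gene per 1000000 counts of the library after TMM scaling, and differences on the log2 scale, positive where oe-AQP1 was higher. A gene was called when its Benjamini-Hochberg adjusted p over all 15522 genes was under 0.05. As a check of the labels, Aqp1 itself had 7713, 8545 and 7838 counts in oe-AQP1 and 41, 25 and 45 in oe-NC, and it had the largest log2 fold change of all genes kept, 7.70 (95% interval 7.35 to 8.04).

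A single library stood apart. The chi-square per gene between oe-NC replicate 1 and the other oe-NC samples was 9.81 and 11.4, against 2.00 between oe-NC replicates 2 and 3 and 1.71 to 2.04 among the oe-AQP1 samples. Results are therefore also given without oe-NC replicate 1 where they rest on it.

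The cell type label was compared with marker genes. Of 10 renal and epithelial markers 9 were kept, and their summed level was 876.1, 859.8 and 844.4 CPM in oe-AQP1 and 1145.9, 1049.4 and 1031.8 CPM in oe-NC. Krt8, an epithelial keratin, was the most abundant of them with a mean of 347.7 CPM, and Pax8, a renal lineage factor, had 163.7 ± 7.03 CPM in oe-AQP1 and 172.4 ± 7.08 CPM in oe-NC (SD, n = 3 each). Epcam, an epithelial adhesion molecule, had 0 counts in all 6 samples, and Cdh1, the epithelial cadherin, had 38 to 78. In this list 6 of the 9 genes were called lower in oe-AQP1, against 16.6% of all genes kept, with a median log2 fold change of -0.41 from Krt19 at -0.97 to Pax2 at 0.25. Without oe-NC replicate 1, 5 were called lower and 1, Pax2, was called higher, at 0.41. Krt19 was then the gene no longer called, at -0.80 with an adjusted p of 0.104, and no longer the lowest of the list.

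Markers of blood cells matter here because Irf4, Irf5 and Irf8 are best known from that lineage. Of 15 such markers 4 were kept, 8 had at most 3 counts in every sample, and Adgre1, Tyrobp and Siglech, which mark macrophages, myeloid cells and plasmacytoid dendritic cells, had 0 in all 6. Their summed level was 41.7, 44.3 and 42.0 CPM in oe-AQP1 and 44.7, 48.1 and 44.8 CPM in oe-NC, most of it from Cd68 (mean 32.2 CPM), a lysosomal protein that other cells express as well. Ptprc, the pan-leukocyte marker, had at most 3 counts in any sample. Among the 4 kept genes 1 was called, against 32.5% of all genes kept: Csf1r, the receptor for macrophage colony-stimulating factor, fell by 1.51. The list median was -0.15, against 0.00 over all genes.

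As background, IRF3 and IRF7 lie in the cytoplasm until the kinases TBK1 and IKKε, switched on by sensors of foreign nucleic acid, phosphorylate them, after which they enter the nucleus and start transcription of the type I interferon genes. Secreted interferon then acts through its receptor and Janus kinases on STAT proteins, which join IRF9 to form the complex ISGF3 and drive interferon-stimulated genes, Irf7 among them. IRF1 and IRF2 bind the same elements, mostly as activator and repressor, while IRF4, IRF5 and IRF8 are known above all from lymphoid and myeloid cells.

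Of the 7 members kept, 5 were called higher in oe-AQP1 (Irf1, Irf2, Irf5, Irf7 and Irf9), none was called lower, and Irf3 and Irf8 were not called. Among all genes kept, 16.0% were called higher and 16.6% lower, 32.5% in all. Members past the log2 threshold of 1 as well numbered 3 (Irf1, Irf5 and Irf7), against 4.39% of all genes kept that were higher by both thresholds. In the same 5 members every oe-AQP1 sample had a higher CPM than every oe-NC sample, which held for 23.5% of all genes kept. Irf5 passed the filter only through its counts in oe-AQP1, so its place in these counts was set by the filter. With 10 counts asked of every sample Irf5 drops out. Then 4 of the 6 members kept were called higher, against 17.1% of all genes kept by that filter, and 2 were past both thresholds. The share of all genes past both thresholds with that filter is not given. Without oe-NC replicate 1 the same 5 members were called higher, against 19.4% of all genes. For a single gene, 3 samples against 3 cannot give an exact two-sided permutation p under 0.1, and the 5 called members and Irf3 each had that value.

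**Figure D1:**
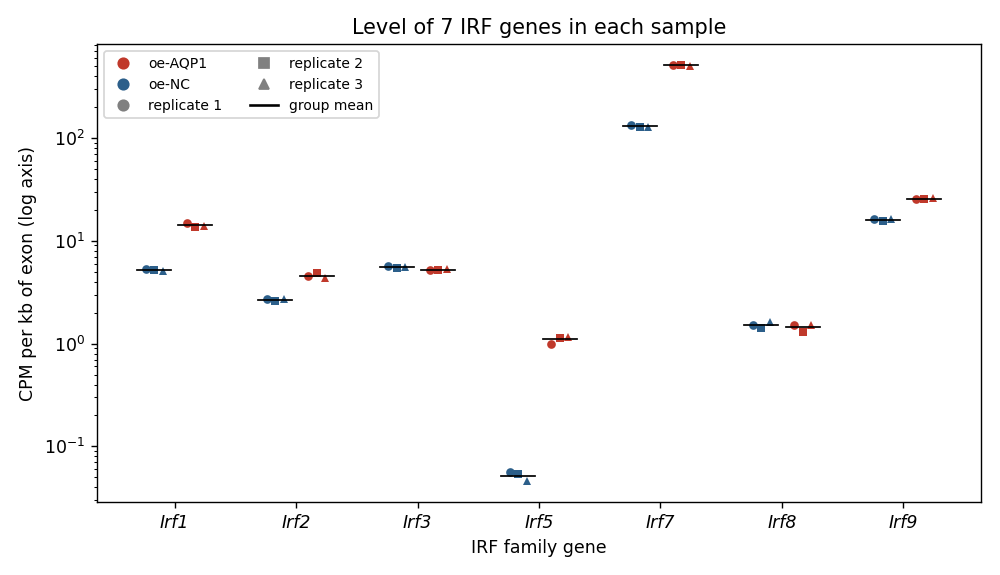
Level of each IRF gene kept, in CPM per kb of exon on a log axis, with 1 point per sample (oe-NC blue, oe-AQP1 red; the shape gives the replicate) and a bar at each group mean. The groups lie apart for Irf1, Irf2, Irf5, Irf7 and Irf9, the means of Irf3 (5.53 and 5.25) and Irf8 (1.51 and 1.45) lie close together, and Irf4 is not drawn because it had 1 count in 1 sample.

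Irf3, in the pathway above a factor activated by phosphorylation, had lower CPM in oe-NC than Irf7, Irf9, Irf2 and Irf1. Its counts were 355, 400 and 384 in oe-AQP1 and 387, 344 and 410 in oe-NC, which scaled to 18.0, 18.2 and 18.7 CPM against 19.7, 18.8 and 19.2 CPM. Every oe-NC sample was above every oe-AQP1 sample on the CPM scale, as in 23.8% of all genes kept, but by little. The log2 fold change was -0.08 (95% interval -0.21 to 0.06, adjusted p = 0.386), and Irf3 was not called; the interval leaves room for a fold of 0.862 to 1.04.

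Irf7, the interferon-inducible partner of Irf3, was the most abundant member in every sample. It had 38273, 42472 and 38940 counts in oe-AQP1 and 10018, 8815 and 10261 in oe-NC. The 3 oe-AQP1 samples lay between 1893.9 and 1935.7 CPM and the 3 oe-NC samples between 481.4 and 510.4 CPM, so the groups were far apart and the samples of each lay close together. The increase was 3.91-fold (95% interval 3.72 to 4.11; log2 fold change 1.97 ± 0.03 SE, adjusted p = 3.45e-11). Per kb of exon, 52 of the genes kept had a higher level than Irf7 in oe-AQP1 and 238 in oe-NC. Without oe-NC replicate 1 the log2 fold change was 1.99.

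Irf5 acts downstream of Toll-like receptors through the adaptor MYD88 and is known for inflammatory cytokine genes. It had 141, 180 and 172 counts in oe-AQP1 and 8, 7.21 and 7 in oe-NC. All oe-NC samples were low, at 0.408, 0.383 and 0.328 CPM, below the 0.497 CPM that the filter asks for, while the oe-AQP1 samples had 7.13, 8.19 and 8.37 CPM. The log2 fold change was 4.32 (95% interval 3.72 to 4.92), a fold of 20.0 with an interval of 13.2 to 30.3; a gene that passes the filter through 1 group only had to differ, so no adjusted p or rank is given for it. With 7 to 8 counts in each oe-NC sample the size of this ratio is known less well than that of the other members. Leaving out oe-NC replicate 1 gave 4.39. In bulk RNA, more cells that express a gene and more of its RNA per cell cannot be told apart, and this holds for each member here. Of the blood markers, Cd68 had 666 to 777 counts in oe-AQP1, Spi1 70 to 99, Csf1r 55.57 to 75.6 and Cd79a 14 to 21, beside the markers at or near 0; their part in the Irf5 level was not tested.

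Irf9, the DNA-binding subunit of ISGF3, had 2925, 3260 and 3089 counts in oe-AQP1 and 1857, 1665 and 1993.91 in oe-NC. In CPM these were 147.9, 148.3 and 150.2 against 94.6, 91.1 and 93.5, with no overlap and an SD of 1.25 and 1.80 CPM. The increase was 1.60-fold (95% interval 1.51 to 1.69; log2 fold change 0.68, adjusted p = 4.31e-07), which is below the log2 threshold of 1. Stat2, which joins it in ISGF3, rose more, from 114.5 ± 3.45 to 447.5 ± 7.79 CPM (log2 fold change 1.97; SD, n = 3 each).

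Irf1, an activator that itself responds to interferons, had 1364.91, 1393.62 and 1350.54 counts in oe-AQP1. In oe-NC it had 492.11, 446.71 and 509.32. All oe-AQP1 samples (63.4 to 69.0 CPM) were above all oe-NC samples (23.9 to 25.1 CPM), and the increase was 2.70-fold (95% interval 2.47 to 2.94; log2 fold change 1.43, adjusted p = 2.54e-08). Irf2, which competes with IRF1 for the same elements, had 1009, 1192 and 988 counts in oe-AQP1 and 599, 528 and 644 in oe-NC. Its groups did not overlap either, at 48.1 to 54.2 CPM against 28.9 to 30.5 CPM. The increase in Irf2 was 1.71-fold (95% interval 1.56 to 1.88; log2 fold change 0.77, adjusted p = 6.39e-06). Without oe-NC replicate 1 the log2 fold changes of Irf1, Irf2 and Irf9 were 1.45, 0.79 and 0.69.

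Irf8, a factor of myeloid and B cell development, had 294, 275 and 304 counts in oe-AQP1 and 290, 252 and 333 in oe-NC. The groups overlapped on the CPM scale, 12.5 to 14.9 against 13.8 to 15.6. The log2 fold change was -0.08 (95% interval -0.28 to 0.13, adjusted p = 0.552), so a fold below 0.823 or above 1.09 lies outside the interval. Irf4, a factor of lymphocyte activation and plasma cells, had 0, 0 and 1 count in oe-AQP1 and 0 in each oe-NC sample. A floor of 3 counts corresponds to 0.136 to 0.164 CPM in these libraries, so Irf4 was not detectable above that level and no fold is given; floors and intervals of counts cover counting error only. Spi1, a partner that IRF4 and IRF8 need on composite elements, had 70, 99 and 92 counts in oe-AQP1 and 86, 94 and 65 in oe-NC, with overlapping groups and a log2 fold change of 0.04 (adjusted p = 0.898).

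**Figure D2:**
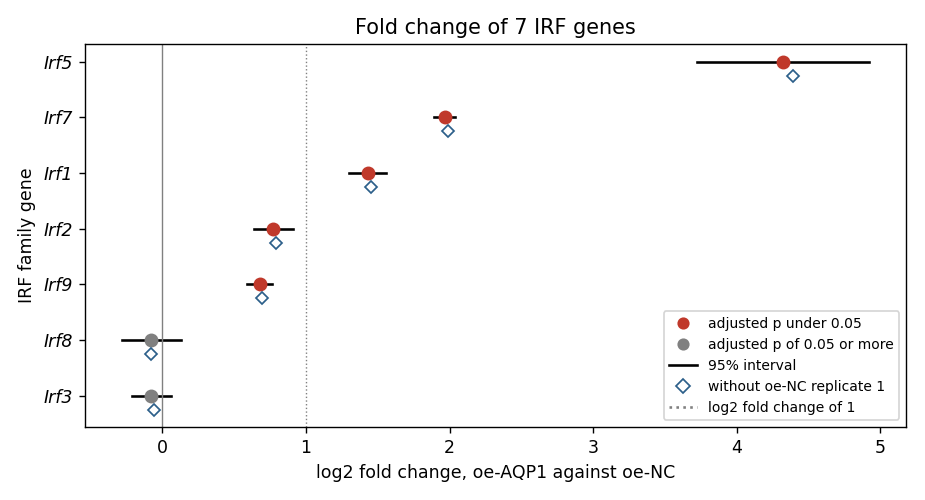
Log2 fold change of each IRF gene kept, oe-AQP1 against oe-NC, with its 95% interval; red points had an adjusted p under 0.05, grey points did not, open diamonds show the value without oe-NC replicate 1, and the dotted line marks a log2 fold change of 1. The values run from -0.08 for Irf3 and Irf8 to 4.32 for Irf5, and without oe-NC replicate 1 the value of Irf5 was 4.39.

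Within each sample the members can be ranked by CPM per kb of exon, where the length is that of all annotated exons of the gene merged. In oe-NC the order was Irf7 (130.0 ± 4.36), Irf9 (16.0 ± 0.31), Irf3 (5.53 ± 0.129), Irf1 (5.23 ± 0.127), Irf2 (2.67 ± 0.0774), Irf8 (1.51 ± 0.0944), Irf5 (0.052 ± 0.00566) and Irf4 at 0 (mean CPM per kb ± SD, n = 3). In oe-AQP1 it was Irf7 (508.0 ± 6.09), Irf9 (25.7 ± 0.215), Irf1 (14.1 ± 0.606), Irf3 (5.25 ± 0.106), Irf2 (4.57 ± 0.275), Irf8 (1.45 ± 0.138), Irf5 (1.10 ± 0.093) and Irf4 near 0. The sample ranges of neighbours in these orders did not overlap in either group. The closest neighbours were Irf3 and Irf1 in oe-NC, 1.06-fold apart, with sample ranges of 5.41 to 5.66 and 5.10 to 5.36 CPM per kb. The middle of the order hangs on the length used: per kb of coding sequence, or with no length at all, Irf2 stood above Irf3 in oe-AQP1 and took the place of Irf3 in oe-NC. The exons of Irf7 merge into 1 block over its whole span of 3.78 kb, since annotated transcripts cover its introns, so its level was divided by a length that includes them; its coding sequence is 1.371 kb.

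The balance between members shifted with their levels. Irf7 made up 80.4% to 81.0% of the summed CPM per kb of the 8 genes in the oe-NC samples and 90.5% to 90.8% in the oe-AQP1 samples. The ratio of Irf7 to Irf3 per kb was 23.8, 23.6 and 23.0 in oe-NC and 99.3, 97.8 and 93.4 in oe-AQP1. For Irf7 to Irf9 it was 8.10 ± 0.192 in oe-NC and 19.8 ± 0.401 in oe-AQP1, and for Irf1 to Irf2 it was 1.96 ± 0.0673 and 3.10 ± 0.264 (mean ± SD, n = 3 each). These ratios and shares are per kb of exon and hang on the length used. Per kb of coding sequence Irf2 was above Irf1 in every oe-NC sample and below it in every oe-AQP1 sample (ratio of Irf1 to Irf2 0.869 ± 0.0299 and 1.38 ± 0.117), the ratio of Irf7 to Irf9 was 5.37 ± 0.127 and 13.1 ± 0.266, and the share of Irf7 was 70.4% to 71.3% and 84.6% to 84.8%. The ratio of Irf5 to Irf8 per kb of exon was 0.0374, 0.0377 and 0.0285 in oe-NC and 0.651, 0.888 and 0.768 in oe-AQP1. Per kb of coding sequence it was 0.0233, 0.0234 and 0.0177 against 0.404, 0.552 and 0.477, so Irf5 was below Irf8 in every sample by either length.

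For the 3 members past both thresholds, the protein-coding genes with the most similar pattern were searched among 9324 genes of at least 10 CPM, by the root mean square difference of centred log2 CPM over the 6 samples. Closest to Irf7 were Stat2 (0.0098), Oas3 (0.0212) and Sp140l2 (0.0349). Closest to Irf1 were Rigi (0.0424), H2-Q10 (0.048) and Oas1c (0.0495). Closest to Irf5 were Phf11a (0.0872), Ly6a (0.122) and Ifit2 (0.126). With 2 groups of 3 samples such a likeness mostly reflects a similar fold change: the log2 values were 1.97, 1.95 and 1.92 beside 1.97 for Irf7, and 4.30, 4.10 and 3.96 beside 4.32 for Irf5.

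Upstream of the family stand the kinases and adaptors that activate IRF3, IRF5 and IRF7. All 14 genes of this list were kept, of which 8 were called higher, 2 lower and 4 not, with a median log2 fold change of 0.24. For this and each list below, the values over all genes kept are 16.0% called higher, 16.6% called lower and a median of 0.00. None passed the log2 threshold of 1. Ikbke, the gene of IKKε, had the highest value, 0.92 (25.3 ± 1.15 against 13.3 ± 1.98 CPM), and Tbk1 rose by 0.48 (85.4 ± 2.84 against 61.2 ± 2.17 CPM). Irak1, a kinase of the Toll-like receptor route, had the lowest and fell by 0.24. Without oe-NC replicate 1, 10 were called higher, and Ikbke reached 1.01; leaving out any other library gave 7 or 8 called higher and 1 called lower.

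Of the 11 interferon receptor chains, Janus kinases and STAT partners, all kept, 5 (45.5%) were called higher and 2 lower, with a median of 0.12; for the lower calls this is close to the share over all genes. Stat2 had the highest value, 1.97. Ifngr1, a chain of the interferon gamma receptor, had the lowest and fell by 0.21. Jak1 was the other gene called lower, with an adjusted p of 0.0457. With any 1 library other than oe-NC replicate 1 left out, 1 gene of this list was called lower in place of 2.

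Among 10 binding partners and cofactors 9 were kept, 2 (22.2%, close to the 16.0% of all genes) were called higher and none lower, with a median of 0.07. The 2 were Batf2 (2.19, with 240, 275 and 265 counts against 62, 44 and 56) and Spib (1.20, with 86, 133 and 113 counts against 55, 38 and 44), both of them DNA-binding partners of IRF proteins on composite elements. The corepressors named for binding IRF2 were highest in oe-NC replicate 1: Irf2bp1 had 983 counts there against 609 and 757 in the other oe-NC samples and 680 to 733 in oe-AQP1. Irf2bp2 had 2257.54 there against 1502.04 and 1645.64, and 1723 to 1974 in oe-AQP1. Their log2 fold changes were -0.20 (the lowest of the list) and 0.01, with adjusted p of 0.261 and 0.966. Without that library they were -0.02 and 0.19, Irf2bp2 was called with an adjusted p of 0.0018, and 5 genes of the list were called higher in place of 2.

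Of 9 negative regulators 8 were kept, 5 were called higher and none lower, with a median of 0.35. Socs1, which blocks Janus kinases, had the highest value, 1.75 (11.1 ± 0.899 against 3.39 ± 1.13 CPM), and Usp18, which removes ISG15 from proteins and restrains the type I receptor, rose by 1.74 (458.9 ± 1.25 against 137.2 ± 2.80 CPM). Nlrx1 was lowest at -0.35 with an adjusted p of 0.0538. The count called higher was 4 in place of 5 with any 1 library other than oe-NC replicate 1 left out, and 1 gene was called lower without oe-NC replicate 3.

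Of 15 known targets of IRF3, IRF7 and ISGF3 all were kept and all were called higher, each by more than 1 on the log2 scale, with a median of 3.96. Ifnb1, the interferon beta gene that IRF3 and IRF7 drive, had 264, 288 and 277 counts in oe-AQP1 and 3, 6 and 5 in oe-NC. Ifna4 had 34, 23 and 23 counts in oe-AQP1 and 0 in each oe-NC sample, at least 8.49-fold higher against a floor of 3 counts per library. Ifnb1 and Ifna4 passed the filter only through oe-AQP1. With Ifna4 set at its bound the median was 3.32. Mx1, known as the gene of an antiviral GTPase, had the largest fitted log2 fold change, 5.91 (450.6 ± 7.74 against 7.46 ± 0.535 CPM). In the annotation used, Mx1 is a protein-coding gene marked for loss of function. Oas1a, a synthetase of the RNase L route, had the smallest, 1.62 (487.2 ± 6.62 against 158.4 ± 1.72 CPM). Against these, the largest change of a family member that all 6 samples carried above the filter was that of Irf7, 1.97.

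Of 14 targets known for IRF1 all were kept, 13 were called higher and 1 lower, with a median of 1.71. Il15 passed the filter only through oe-AQP1. Gbp2, a guanylate-binding protein, had the highest value, 3.89 (219.4 ± 2.47 against 14.8 ± 0.872 CPM), and the immunoproteasome genes Psmb8, Psmb9 and Psmb10 rose by 1.58, 2.19 and 2.36. Nos2, inducible nitric oxide synthase, was the exception: it had 96, 98 and 112 counts in oe-AQP1 and 264, 241 and 285 in oe-NC and fell by 1.44 (adjusted p = 2.62e-06). Socs1 and Usp18 stand both in a target list and among the negative regulators. Leaving out any 1 of the 6 libraries left the counts of called genes in both target lists as they were, while a filter of 10 counts in every sample, which removes Ifnb1, Ifna4 and Il15, left 13 and 12 called higher. The target lists hold genes known to answer to interferon, and which IRF acted on them was not tested.

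**Figure D3:**
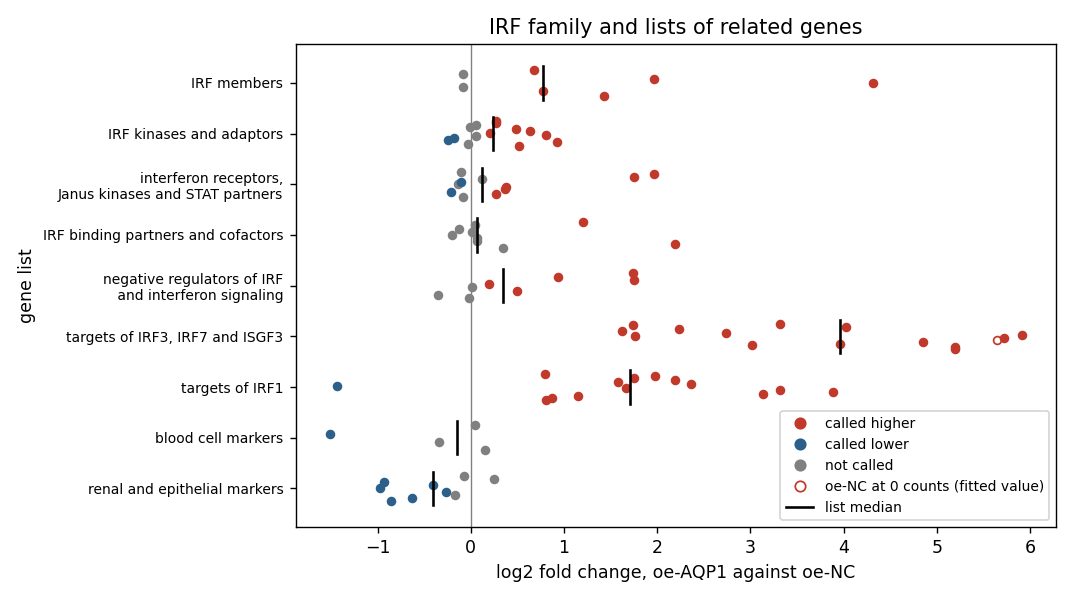
Log2 fold change of every kept gene of the IRF family and of the lists of related genes, oe-AQP1 against oe-NC, 1 point per gene (red called higher, blue called lower, grey not called; the open point is Ifna4, a fitted value against 0 counts), with a bar at each list median. The medians run from -0.41 for the renal and epithelial markers to 3.96 for the targets of IRF3, IRF7 and ISGF3, and the IRF members lie between at 0.77. With Ifna4 set at its bound the highest median is 3.32.

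The members lie on 6 chromosomes (GRCm39, GENCODE M39), so they are not a gene cluster. Irf1 (ENSMUSG00000018899) is at chr11:53660812-53669200, Irf2 (ENSMUSG00000031627) at chr8:47192222-47300501 and Irf8 (ENSMUSG00000041515) at chr8:121463096-121485659. Irf3 (ENSMUSG00000003184) is at chr7:44647033-44652272 and Irf7 (ENSMUSG00000025498) at chr7:140842619-140846398, the latter on the minus strand and all others on the plus strand. Irf4 (ENSMUSG00000021356) is at chr13:30933209-30950959, Irf5 (ENSMUSG00000029771) at chr6:29526276-29541870 and Irf9 (ENSMUSG00000002325) at chr14:55841028-55847812.

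Most members overlap another annotated gene, so reads in shared bases could have been counted for either. Irf1 lies inside the antisense lncRNA Gm12216 and shares 1467 exon bases with Gm17334, also antisense; its counts were not whole in any sample. Gm17334 had 50.02, 47.81 and 30.71 counts in oe-AQP1 and 18.96, 8.88 and 11.97 in oe-NC and rose by 1.61, while Gm12216 had a log2 fold change of 0.63 (adjusted p = 0.0564). Gm74496, an antisense lncRNA with 405 shared exon bases, had 2.07, 1.57 and 1.75 counts in oe-AQP1 and 8.93, 3.4 and 6.71 in oe-NC; the filter removed it, so it has no test. The antisense lncRNA Gm16675 at the start of Irf2 shares 112 exon bases with it and rose by 0.89, with 328.99, 424.26 and 386.29 counts against 161.48, 209.34 and 219.35. Rnf31, on the same strand as Irf9 with 282 shared exon bases, rose by 0.52, with 604, 674 and 659.01 counts against 483, 382 and 426.09. The protein-coding neighbours of the remaining members were not called: Bcl2l12 and Scaf1 beside Irf3 (log2 fold changes 0.10 and -0.06), Tnpo3 beside Irf5 (0.02) and Phrf1 beside Irf7 (-0.14). These 4 genes share 123, 22, 416 and 63 exon bases with their IRF neighbour. The values of Scaf1 and Phrf1 rest on oe-NC replicate 1. Scaf1 had 115.9 CPM there, against 80.8 and 80.1 CPM in the other oe-NC samples and 86.2, 88 and 87.8 CPM in oe-AQP1. Without that library every oe-AQP1 sample was above every oe-NC sample for Scaf1. Phrf1 had 179.3 CPM there, against 147.3 and 139.9 CPM in the other oe-NC samples and 142.2, 140.1 and 139.3 CPM in oe-AQP1. A fit of both genes without that library is not given.

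Promoter windows of the members, 250 bases before to 50 after a start, were taken from RefSeq (build GRCm38.p6), where all 8 matched with 11 windows; each window was found once, without a mismatch, in GRCm39, and the positions given are of GRCm39. They were searched on both strands for GAAANNGAA, the core of the interferon-stimulated response element (ISRE) that IRF proteins bind, and for TTCNNNGAA, the gamma-activated site (GAS) of STAT dimers, which reads the same on both strands. No match of one motif overlapped a match of the other. Several RefSeq starts lay inside the gene as annotated in GENCODE M39. The start was 558 bases downstream of the GENCODE gene start for Irf2, 348 for Irf5, and 414 and 1008 for Irf9. For window 2 of Irf1 and window 2 of Irf8 it was 487 and 2282 bases downstream. These windows lie wholly inside the annotated gene, so for Irf2, Irf5 and Irf9 no bases upstream of the GENCODE start were searched. The ISRE core was found in 1 of the 11 windows, that of Irf2, against 8.56% of all 32851 windows in the table. GAS was found in 3 of the 11, the windows of Irf1, Irf2 and Irf8, against 8.30% of all windows. Only the GAS match of Irf1 lay within the 150 bases nearest the start on the upstream side. Of the 5 members called higher, Irf1 and Irf2 had a match, and of the members not called, Irf8 had 2 and Irf3 none. A match is a description of letters, and its absence from a window of 300 bases says nothing of elements elsewhere.

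The 3 windows with a match are shown because they include genes that rose (Irf1, Irf2) and one that was not called (Irf8), together with that of Irf7, the most abundant member, which had no match. Each is written 5′ to 3′ on the strand of its gene with the motif matches in capitals. The Irf1 window is chr11:53660591-53660890 (plus strand), with GAS at bases -90 to -82 from the start. The Irf2 window is chr8:47192530-47192829 (plus strand), with the ISRE core at -241 to -233 and GAS at -224 to -216. Both Irf2 matches are upstream of the RefSeq start but inside the gene as annotated in GENCODE M39, which starts 558 bases before the RefSeq start. The Irf8 window is chr8:121462847-121463146 (plus strand), with GAS at -171 to -163 and at -153 to -145. The Irf7 window is chr7:140846288-140846587 (minus strand).
Irf1: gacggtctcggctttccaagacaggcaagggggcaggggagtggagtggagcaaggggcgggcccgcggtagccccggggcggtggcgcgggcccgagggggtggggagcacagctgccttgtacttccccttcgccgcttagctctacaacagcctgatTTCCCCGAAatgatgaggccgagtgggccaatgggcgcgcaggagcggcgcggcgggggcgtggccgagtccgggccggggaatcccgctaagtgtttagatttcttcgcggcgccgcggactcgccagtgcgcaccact
Irf2: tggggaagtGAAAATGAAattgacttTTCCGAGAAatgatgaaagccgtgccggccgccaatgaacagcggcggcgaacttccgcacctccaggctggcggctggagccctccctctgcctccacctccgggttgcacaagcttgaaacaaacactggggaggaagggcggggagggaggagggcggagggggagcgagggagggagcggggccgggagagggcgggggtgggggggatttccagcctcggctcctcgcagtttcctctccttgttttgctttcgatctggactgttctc
Irf8: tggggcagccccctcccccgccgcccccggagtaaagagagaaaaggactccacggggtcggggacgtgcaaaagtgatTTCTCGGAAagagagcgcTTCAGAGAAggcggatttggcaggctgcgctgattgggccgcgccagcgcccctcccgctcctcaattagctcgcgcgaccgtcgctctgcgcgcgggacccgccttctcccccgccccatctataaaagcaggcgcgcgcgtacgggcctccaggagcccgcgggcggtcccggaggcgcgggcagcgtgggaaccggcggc
Irf7: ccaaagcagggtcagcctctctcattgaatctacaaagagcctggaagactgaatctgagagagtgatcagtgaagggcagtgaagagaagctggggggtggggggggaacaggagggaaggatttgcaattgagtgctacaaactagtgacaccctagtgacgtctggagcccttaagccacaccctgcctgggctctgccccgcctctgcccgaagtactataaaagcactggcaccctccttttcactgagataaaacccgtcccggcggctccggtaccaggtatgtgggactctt

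**Figure D4:**
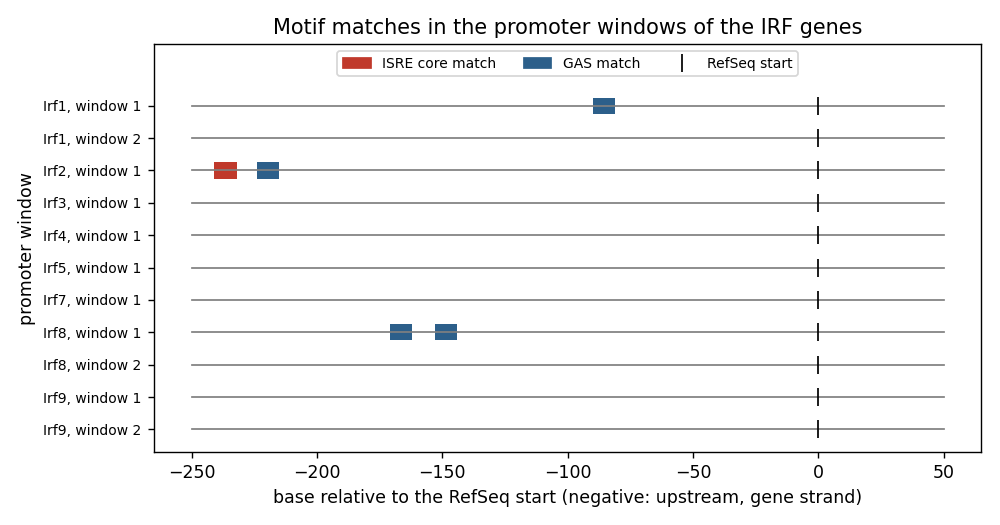
Positions of the ISRE core (red) and GAS (blue) matches in the 11 promoter windows of the 8 IRF genes, in bases from the RefSeq start on the strand of the gene; the tick marks the start. Matches stand in the windows of Irf1, Irf2 and Irf8, and the other windows have none. The windows of Irf2, Irf5 and Irf9, window 2 of Irf1 and window 2 of Irf8 lie wholly inside the gene as annotated in GENCODE M39.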

How the data were processed

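RENCA cells of 3 oe-AQP1 and 3 oe-NC samples were sequenced as paired-end total RNA libraries. The authors deposited an expected count per gene and sample, not scaled between samples; their 2 columns of group means were not used here. The study's methods name GRCm39, while the submitters' processing notes name GRCm38 (mm10) with fastp, HISAT2, featureCounts and Subread, without versions. Since 99.83% of the gene identifiers are in GENCODE M39, positions and lengths come from it.

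Counts were rounded, filtered with filterByExpr given the group (at least 10 counts in a median library, or 0.497 CPM, in 3 samples), TMM-scaled and fitted with limma-voom (limma 3.58.1, edgeR 4.0.16, R 4.3.3), with Benjamini-Hochberg adjustment over all genes kept and thresholds of adjusted p under 0.05 and absolute log2 fold change above 1. Libraries held 18385714.02 to 21920898.67 expected counts, so 3 counts are 0.136 to 0.164 CPM. DESeq2 1.42.0, the quasi-likelihood test of edgeR, sample quality weights, 3 scalings, 2 filters, unrounded counts, a replicate block, leaving out each sample, other lengths for the order of levels and a shorter promoter window were tried as alternatives. Named were all 8 members, list genes past both thresholds, the extremes of each list, some pathway genes set in advance, overlapping or adjacent genes and the 3 most similar genes per member past both thresholds; Jak1, Pax2, Pax8, Cdh1, Krt8, Cd79a and the blood markers at or near 0 were named after their values were seen. Members and lists were chosen with earlier results of these data known. Family genes outside the 8, 1 of the pathway genes set in advance and a planned comparison of the proteins are not reported here.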

Additional observations from a re-analysis of the deposited data

How the results depend on the processing

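The 7 members kept their direction and side of the adjusted p threshold in 16 alternatives (15 for Irf5, which a filter of 10 counts in every sample removes), except that the uncalled Irf8 ran from -0.12 to 0.01. Irf5 passed the low-count filter only through oe-AQP1, so its side of the threshold says nothing of stability where that filter was used. Log2 fold changes ran from 1.95 to 1.99 for Irf7, 1.40 to 1.46 for Irf1, 4.23 to 4.41 for Irf5, 0.73 to 0.82 for Irf2, 0.66 to 0.69 for Irf9 and -0.09 to -0.06 for Irf3, and the highest adjusted p of a called member was 0.000102 (Irf2). The members called higher numbered 5 in each alternative but the filter of 10 counts in every sample, which left 4. Scalings moved the median of all genes by at most 0.01. With the replicate block the log2 fold changes of Irf1, Irf2, Irf5, Irf7 and Irf9 were 1.43, 0.77, 4.32, 1.97 and 0.68. The deviations of same-numbered samples from their group means correlated at 0.009, -0.004 and -0.068 across genes, and those of other pairings at -0.049 to 0.057. Deviations from a mean of 3 samples are tied to each other, so these values cannot decide whether same-numbered samples share more than a number. Of the kinases and adaptors 9 were higher with sample quality weights, 7 with no filter and 7 to 10 with a sample left out, and 1 was lower with DESeq2 or no filter and 1 to 2 with a sample left out. Of the receptors, Janus kinases and STAT partners 1 was lower with edgeR, DESeq2, library size scaling, 10 counts in every sample or the replicate block, and 1 to 2 with a sample left out. Of the negative regulators 4 were higher with edgeR or no filter and 4 to 5 with a sample left out, and 1 was lower with upper-quartile scaling or the replicate block and 0 to 1 with a sample left out. Of the renal and epithelial markers 1 was higher with sample quality weights or the replicate block and 0 to 1 with a sample left out, and 5 were lower with DESeq2 or no filter and 5 to 6 with a sample left out. Of the targets of IRF3, IRF7 and ISGF3 13 were higher in place of 15, and of those of IRF1 12 in place of 13, with 10 counts in every sample. Of the binding partners 3 were higher with sample quality weights and 2 to 5 were higher with a sample left out, 5 without oe-NC replicate 1. In the 150 bases nearest the start the ISRE core was in 0 and GAS in 1 of the 11 windows, as the shorter window holds fewer bases. With coding length or no length, 2 members changed place in each order of levels. The cause of the other shifts was not tested. Depth limits Irf4 and the size of the Irf5 ratio.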
